A study of Mus musculus with 6 samples.

Results

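Cytochrome P450 families 2 and 4 are taken here as the 70 protein-coding genes of the GENCODE M39 annotation named Cyp2 or Cyp4 with a subfamily letter and a number, of 21757 protein-coding genes on chromosomes 1 to 19, X and Y. There were 50 genes of family 2 and 20 of family 4, in 19 subfamilies on 9 chromosomes. The region of a gene ran from 3 kb before its start to its end. It held the distinct intervals of open chromatin that ATAC-seq, which cuts accessible DNA with a transposase, had found in mouse kidney. The choice of genes used their names only, and no measured value.

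The libraries labelled here came from 3 WT mice and 3 Acly cKO mice. WT mice were littermates with floxed Acly and no Cre, and Acly cKO mice carried floxed Acly with Cre under the promoter of Cdh16 (Ksp-Cre), which recombines in proximal and distal tubule and collecting duct. All 6 carried the treatment label Control. The methods give an age for the mouse models of the study at large, and neither age nor sex for the mice of these libraries. WT libraries carried batch labels 1 and 2 and Acly cKO libraries 4 and 5, and an effect of batch cannot be told apart from one of genotype. Peaks were called once over pooled libraries, which the peak list does not name. The study also used WT libraries deposited earlier, which are not analysed here and may be in the pool. Every value below is thus a single pooled value: it has no replicate error, no test was made, the depth of each library is unknown, and WT and Acly cKO were not compared. In pooled tissue, an interval open in few cells and one weakly open in many cannot be told apart.

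P450s of these families sit in the endoplasmic reticulum, take electrons from P450 oxidoreductase (Por) and insert an oxygen atom into lipids, steroids and drugs. In the kidney, the Cyp2c and Cyp2j epoxygenases and the Cyp4a and Cyp4f omega-hydroxylases turn arachidonic acid into mediators of vascular tone and sodium transport, many of them in the proximal tubule. Most of the genes lie in tandem arrays that arose by duplication, and neighbours in an array can be nearly identical in sequence.

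Some sequences discussed below are shown first, and whether their letters bear on the fold values was not tested. In intron 8 of 4 Cyp2b genes, 29 bases after the end of exon 8, an interval covered the same 14 bases. The capitals mark these bases, which hold a match with 1 mismatch to the core of the CTCF motif (CCA, any 2 bases, AG, any 2 bases, GGC, any base, G). CTCF is a zinc finger protein that anchors chromatin loops. The stretches are on the plus strand of GRCm39, at chr7:25616872-25616909, chr7:25788185-25788222, chr7:25900675-25900712 and chr7:26466688-26466725.
Cyp2b10: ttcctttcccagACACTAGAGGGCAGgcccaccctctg
Cyp2b13: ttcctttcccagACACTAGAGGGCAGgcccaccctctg
Cyp2b9: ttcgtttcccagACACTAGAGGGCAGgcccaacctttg
Cyp2b19: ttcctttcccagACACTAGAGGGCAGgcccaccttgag

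At the 3′ end of the Cyp4f genes the same core, again with 1 mismatch, recurred in or just beyond exon 13. Stretches of 30 bases are shown along the gene for 3 of the 4 genes that hold it, with the core in capitals, at chr17:33124361-33124390 (minus strand), chr17:32770267-32770296 and chr17:32854203-32854232 (both plus strand) of GRCm39.
Cyp4f14: accgagagCCAGCAGGGGGCGCtgtgaaat
Cyp4f16: acccagagCCATCAGAGGGCGCtgcaggat
Cyp4f37: acagaacgCCAGCAGGGGGCGCtagagggc

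Cyp2a5 and Cyp2a4 lie in the chromosome 7 array and are alike before their starts. The stretch of 120 bases that ends just before the start of Cyp2a5 and its closest match at Cyp2a4 differed at 3 bases, in capitals. They lie at chr7:26534610-26534729 and chr7:26006464-26006583, plus strand, GRCm39.
Cyp2a5: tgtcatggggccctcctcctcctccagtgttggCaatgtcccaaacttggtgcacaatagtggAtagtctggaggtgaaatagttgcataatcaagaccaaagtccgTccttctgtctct
Cyp2a4: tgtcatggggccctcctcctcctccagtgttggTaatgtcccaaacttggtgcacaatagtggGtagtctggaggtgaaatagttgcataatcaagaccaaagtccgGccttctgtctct

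Marker genes of kidney cell types and of other organs were looked up. All 6 proximal tubule markers, all 4 of thick limb and distal tubule and all 3 of collecting duct had an interval of at least 5-fold. The proximal tubule markers ran from Slc22a6 at 5.30-fold to Lrp2 at 33.1-fold, with a median of 14.5-fold. An interval of at least 5-fold was also found for 1 of 3 podocyte, 2 of 3 endothelial and 3 of 3 immune markers, and for 74.7% of all protein-coding genes. Of 5 liver genes 4 reached that fold, with Apoa2 at 80.3-fold, and of 5 genes of other organs 3 did, so an interval in a region does not by itself mark a gene of this tissue. Fold here is the authors' fold enrichment of the pileup at a summit over the local background, and each interval takes that of its highest summit.

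An interval was found in the region of 48 of 70 members (68.6%), against 83.2% of all protein-coding genes. An interval that reached within 1 kb of the gene start (a start interval) was found in 32 members (45.7%), against 74.3% of all genes. The strongest interval reached 5-fold in 31 members (44.3%), against 74.7%. The median of the strongest interval was 8.81-fold over members with an interval and 30.8-fold over all genes with one. These shares were lower than the background although the regions were of like length, with a median of 24.4 kb for members and 22.2 kb for all genes. The 30 genes of the other P450 families gave 66.7%, 46.7% and 43.3%, with a median of 7.10-fold, close to the members in each count.

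**Figure D1:**
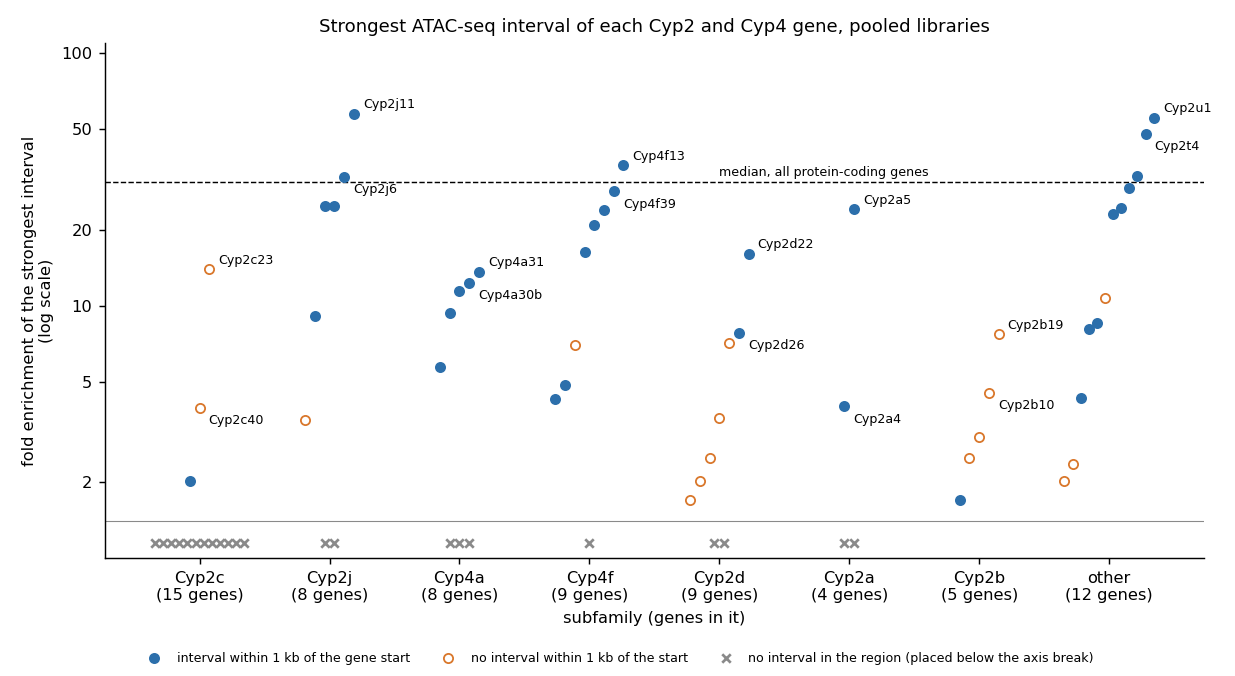
Strongest interval of each of the 70 members, as fold enrichment in the pooled libraries on a log scale, by subfamily. Filled points have a start interval, open points do not, and crosses mark genes with no interval in the region, 12 of them in Cyp2c. The dashed line is the median over all protein-coding genes with an interval, 30.8-fold, which 6 members exceed.

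Over all regions there were 194 distinct intervals, 129 in family 2 and 65 in family 4, out of 279569, and no interval was shared between members. Their median fold of 2.82 lay near the 2.55 of all intervals, and 28.4% reached 5-fold against 24.5%. The lower values of the members thus lay in how many genes held an interval, in the number of intervals per gene (a median of 1 against 4) and in the strongest interval of a gene, and not in the median over single intervals. Of the 194, the highest summit lay in an intron in 105, upstream in 48, in an exon in 32 and downstream in 9. The 32 intervals with a summit within 1 kb of the start had a median of 11.5-fold, and the 162 farther away a median of 2.49-fold.

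**Figure D2:**
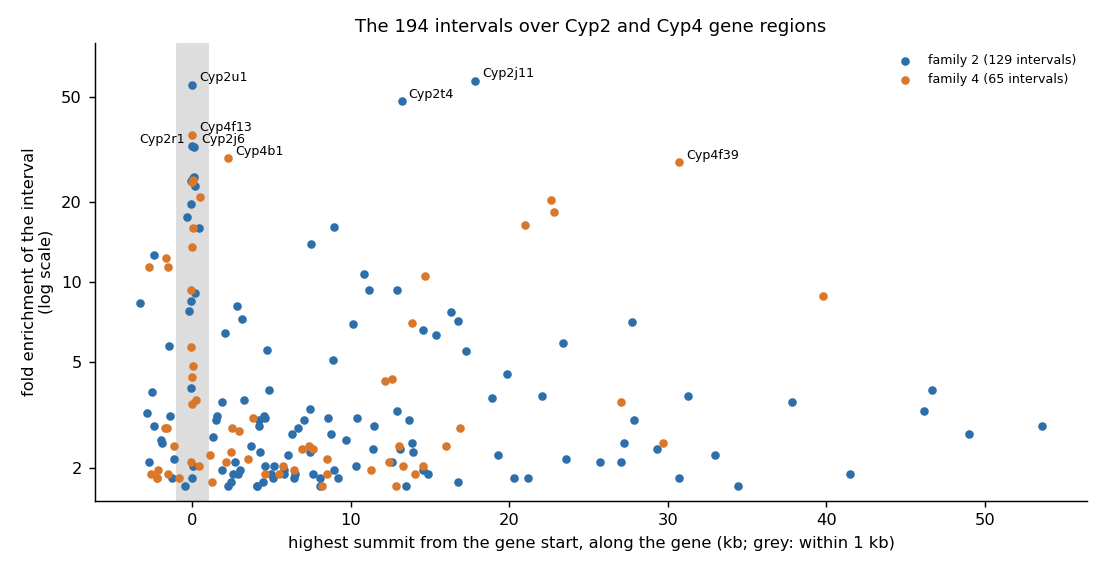
Each of the 194 intervals by the distance of its highest summit from the gene start along the gene (kb) and its fold enrichment (log scale), coloured by family. The grey band is 1 kb on either side of the start. Of the 8 tallest intervals, 4 have their summit in the band and 4 do not, those of Cyp2j11, Cyp2t4, Cyp4b1 and Cyp4f39.

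The epoxygenases split into an almost empty Cyp2c array and a Cyp2j array with intervals at most genes. Of 15 Cyp2c genes, 3 had an interval and 12 had none: Cyp2c29, Cyp2c37, Cyp2c39, Cyp2c50, Cyp2c54, Cyp2c55, Cyp2c65, Cyp2c66, Cyp2c67, Cyp2c68, Cyp2c69 and Cyp2c70, the last of which makes muricholic bile acids in mouse liver. The median region of the subfamily was 43.2 kb long. Cyp2c23, listed in RefSeq also as Cyp2c44, is the arachidonic acid epoxygenase of the mouse kidney and lies apart from the array on chromosome 19. It alone was widely open, with 9 intervals. Its strongest was 13.9-fold in intron 1, at 7471 bp from the start, where minus signs mark positions before a start. Others reached 8.31-fold at -3325 bp, 6.42-fold at 2036 bp and 5.11-fold at 8851 bp. Cyp2c23 had no interval within 1 kb of its start. Cyp2c40 had an interval of 3.93-fold in exon 9 and Cyp2c38 one of 2.03-fold at its start.

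Of 8 Cyp2j genes, 6 had an interval, 5 a start interval and 5 an interval of at least 5-fold, shares of 75%, 62.5% and 62.5% that lay below the 83.2%, 74.3% and 74.7% of all genes. Cyp2j11 held 15 intervals, and its strongest, 57.5-fold, was the highest of all members. It lay in intron 4, at 17826 bp from the start, in the interval chr4:96217094-96220840, while the interval at the start of Cyp2j11 was 19.7-fold and one in intron 3 was 16.1-fold. Cyp2j5, an arachidonic acid epoxygenase of the proximal tubule, held 13 intervals, of which only the one at the start, at 24.7-fold, exceeded 5-fold. Cyp2j6 (32.5-fold) and Cyp2j9 (24.9-fold) also had their strongest interval at the start, and so did Cyp2j13 at 9.10-fold. Cyp2j8 had 1 interval of 3.54-fold in intron 7, and Cyp2j12 and Cyp2j7 had none. The stretch of 61 bases on the minus strand around the intron 4 summit of Cyp2j11, the tallest of the members, is given from chr4:96219043-96219103 of GRCm39. These 61 bases held no match, with up to 2 mismatches, to the DR1 motif searched below, so no base is in capitals.
Cyp2j11: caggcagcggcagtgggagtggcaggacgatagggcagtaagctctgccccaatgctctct

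The omega-hydroxylases had start intervals more often than family 2 as a whole. Family 4 had a start interval in 15 of 20 genes (75%), which is at the background of 74.3%, and family 2 in 17 of 50 (34%). When only start intervals of at least 5-fold counted, family 4 had 9 (45%) and family 2 had 14 (28%), against 64.3% of all genes. Of 8 Cyp4a genes, 5 had a start interval. Cyp4a31 led with 13.6-fold at -2 bp. Cyp4a30b followed with 1 wide interval of 12.3-fold that reached the start from a summit at -1681 bp. Cyp4a10 and Cyp4a14 encode fatty acid hydroxylases induced through PPARA. Cyp4a10 had 9.36-fold at its start and Cyp4a14 4.39-fold there, with 11.4-fold at -1532 bp. Cyp4a32 had 5.70-fold at its start. Cyp4a29, Cyp4a12a and Cyp4a12b had no interval. Cyp4a12a encodes the main arachidonic acid omega-hydroxylase of the male mouse kidney, and it was the only gene without an interval among the 8 members listed as used in the kidney, of which 7 (87.5%) had a start interval and 7 an interval of at least 5-fold, against 74.3% and 74.7% of all genes. That list does not hold Cyp2c23, which had no start interval.

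Of 9 Cyp4f genes, 8 had an interval and 7 a start interval, and only Cyp4f15 had none. Cyp4f13 (35.9-fold), Cyp4f16 (23.8-fold) and Cyp4f17 (20.95-fold) had the strongest interval at the start, and Cyp4f40 had 4.84-fold there. Cyp4f39, which makes the very long omega-hydroxy fatty acids of the skin barrier, had 28.3-fold in exon 8 and 3.47-fold at its start. In Cyp4f18 (16.4-fold, with 2.23-fold at its start), Cyp4f37 (7.01-fold, with none at its start) and Cyp4f14, a hydroxylase of leukotrienes (4.26-fold, with 3.60-fold at its start), the strongest summit lay in exon 13. This exon was a shared place: 6 of the 9 genes had a summit there, with Cyp4f13 at 20.4-fold, Cyp4f17 at 18.4-fold, Cyp4f18 at 16.4-fold and Cyp4f16 at 10.5-fold. Exon 13 was the last exon of all 6. The CTCF core shown above began 245 bases after the start of exon 13 in Cyp4f16 and Cyp4f17, 261 in Cyp4f37 and 270 in Cyp4f14. The coding part of the exon was 175 bases, 241 in Cyp4f37, so these cores lay beyond it. The highest summits lay before the cores, at 151 bases in Cyp4f16, 159 in Cyp4f17, 206 in Cyp4f37 and 259 in Cyp4f14. Only that of Cyp4f14 lay beyond the coding part. These genes are paralogs too, so the copies are no separate support for each other. Cyp4f13 and Cyp4f18 had no match with up to 1 mismatch in the exon or within 100 bases of it.

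The other members of family 4 were open as well. Cyp4b1, which activates protoxins in lung and kidney, held 9 intervals. Its strongest was 29.3-fold in intron 1, at 2245 bp, beside one of 16.0-fold at the start. Cyp4v3, the mouse counterpart of the gene of Bietti crystalline dystrophy, had 24.3-fold at its start. Cyp4x1, best known from brain, reached 4.32-fold in intron 5 and 2.03-fold near its start.

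Among the drug and steroid metabolising subfamilies, the median strongest interval was 3.60-fold in Cyp2d and 3.01-fold in Cyp2b, and 14.1-fold over the 2 Cyp2a genes with an interval. In the 9 Cyp2d genes, 7 had an interval but 2 a start interval. Cyp2d22 had 16.0-fold in intron 1, at 387 bp, and Cyp2d26 7.79-fold at -218 bp, and both are listed as used in the kidney. Cyp2d9, a male-specific testosterone hydroxylase of mouse liver, reached 7.14-fold, and an interval of 3.67-fold lay at exon 1 of its main transcript, at 18934 bp from the annotated gene start. Cyp2d12 had 3.60-fold, Cyp2d13, Cyp2d11 and Cyp2d34 lay between 1.70-fold and 2.49-fold, and Cyp2d10 and Cyp2d40 had none. In Cyp2a, Cyp2a5, a coumarin and nicotine hydroxylase, had 24.2-fold at -60 bp and Cyp2a4, a testosterone hydroxylase, 3.99-fold at -74 bp, while Cyp2a12 and Cyp2a22 had none. The starts of Cyp2a5 and Cyp2a4, within 500 bp on either side, were 98.8% identical over 992 aligned bases. The share of repeated sequence, described below, was 43.4% at the start of Cyp2a5 and 43.7% at that of Cyp2a4. Over their regions it was 48.6% and 45.1%. Only uniquely mapped reads were kept, and whether this bears on either fold value was not tested.

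All 5 Cyp2b genes had an interval, but 1, Cyp2b23, at its start, at 1.70-fold. Cyp2b10, the liver enzyme induced by drugs through the receptor CAR, had 4.52-fold, Cyp2b9 3.01-fold and Cyp2b13 2.49-fold, each as its strongest, and all 3 covered the intron 8 site. In Cyp2b19 the interval over that site was 6.94-fold and the strongest, 7.73-fold, had its summit beyond the gene end. The exact 14 bases occurred in no other member region. On the 21 chromosomes they occurred 98 times, these 4 included, of which 62 (63.3%) lay in an interval. The letters were picked because Cyp2b intervals cover them, and the genes are paralogs, so the 4 copies are no separate support for each other.

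Of the 12 subfamilies with a single gene, 9 (75%) had a start interval, near the 74.3% of all genes. Cyp2u1, a fatty acid hydroxylase, had 55.6-fold at -7 bp and 11 intervals. Cyp2r1, a vitamin D hydroxylase, had 32.5-fold, and Cyp2s1, an enzyme of epithelia, 23.0-fold. Cyp2e1, the ethanol-oxidising P450, had 8.51-fold at -111 bp. Cyp2w1 had an interval of 8.12-fold with its summit in intron 4 and one of 1.83-fold over its start. The 48.1-fold value of Cyp2t4 had its summit 74 bp after the start of Egln2, outside the Cyp2t4 region, and the interval at the start of Cyp2t4 was 17.6-fold. Cyp2f2, the naphthalene-activating P450 of airway club cells, had 10.7-fold in intron 7 and nothing at its start. Cyp2ab1 (2.36-fold) and the olfactory Cyp2g1 (2.03-fold) had none at the start. Of 10 members listed as best known from liver, 3 had an interval and 0 a start interval at the annotated gene start, against 83.2% and 74.3% of all genes. The 3 were Cyp2b10, Cyp2d9 and Cyp2f2, the last described above by its airway role. At the start of any transcript, Cyp2b10 (4.52-fold) and Cyp2d9 (3.67-fold) also had an interval, against 77.9% of all genes. Cyp2c genes of the array make up 5 of the 10, and Cyp2e1 and Cyp2a5, also abundant in liver, are not on the list. The share of repeated sequence at the start, described below, was above 10% in Cyp2c29 (94.1%), Cyp2c37, Cyp2c50, Cyp2c54 and Cyp2a12. It was below 10% in the other listed members, and its part in the counts of this list was not tested.

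All 7 partners of these enzymes had an interval of at least 5-fold and a start interval, among them Por at 64.9-fold, with 24.4-fold at its start, and the electron donor Cyb5a at 101-fold, with 1.90-fold at its start. All 11 regulators analysed did too, including Ppara at 47.7-fold, Hnf4a at 30.4-fold, with 1.96-fold at its start, and Ahr at 60.6-fold. Of all genes, 74.7% had an interval of at least 5-fold and 74.3% a start interval. Median regions were longer for partners (45.7 kb) and regulators (69.1 kb) than for all genes (22.2 kb), and longer regions can hold more intervals. The 80.3-fold value in the region of Nr1i3, which encodes CAR, was also the value of the neighbouring Apoa2, and the start interval of Nr1i3 was 4.71-fold.

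The arrays differed by an order of size. Clusters, defined as 3 or more members with neighbours at most 500 kb apart, held 62 members in 6 spans, and 8 members stood alone. The genome held 10.6 intervals per 100 kb. The Cyp2c cluster on chromosome 19 (chr19:38992462-40178777), with 14 members over 1186 kb, held 9 intervals, or 0.759 per 100 kb. Only 2 of them lay in member regions, and the strongest, 15.1-fold, stood 48.8 kb beyond Cyp2c69 and 56.8 kb before Cyp2c37. The chromosome 7 cluster of Cyp2a, Cyp2b, Cyp2f, Cyp2g, Cyp2s and Cyp2t held 5.38 per 100 kb, Cyp2d on chromosome 15 7.97, Cyp4f on chromosome 17 8.59, Cyp2j on chromosome 4 10.5, and the Cyp4a, Cyp4b and Cyp4x cluster on chromosome 4 10.8. Over the member regions alone, 5 clusters held between 11.5 and 14.7 intervals per 100 kb, above the genome, and Cyp2c held 0.296. Measured against the genome, the lower density of the chromosome 7, Cyp2d and Cyp4f spans lay between their members, and that of Cyp2c lay in both. The genome's density includes the space between genes, and the regions of other genes were not measured this way, so normal member regions are not shown. With only intervals of −log10 q over 5, Cyp2d (5.86) and Cyp4f (6.59) were above the genome (5.79 per 100 kb).

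**Figure D3:**
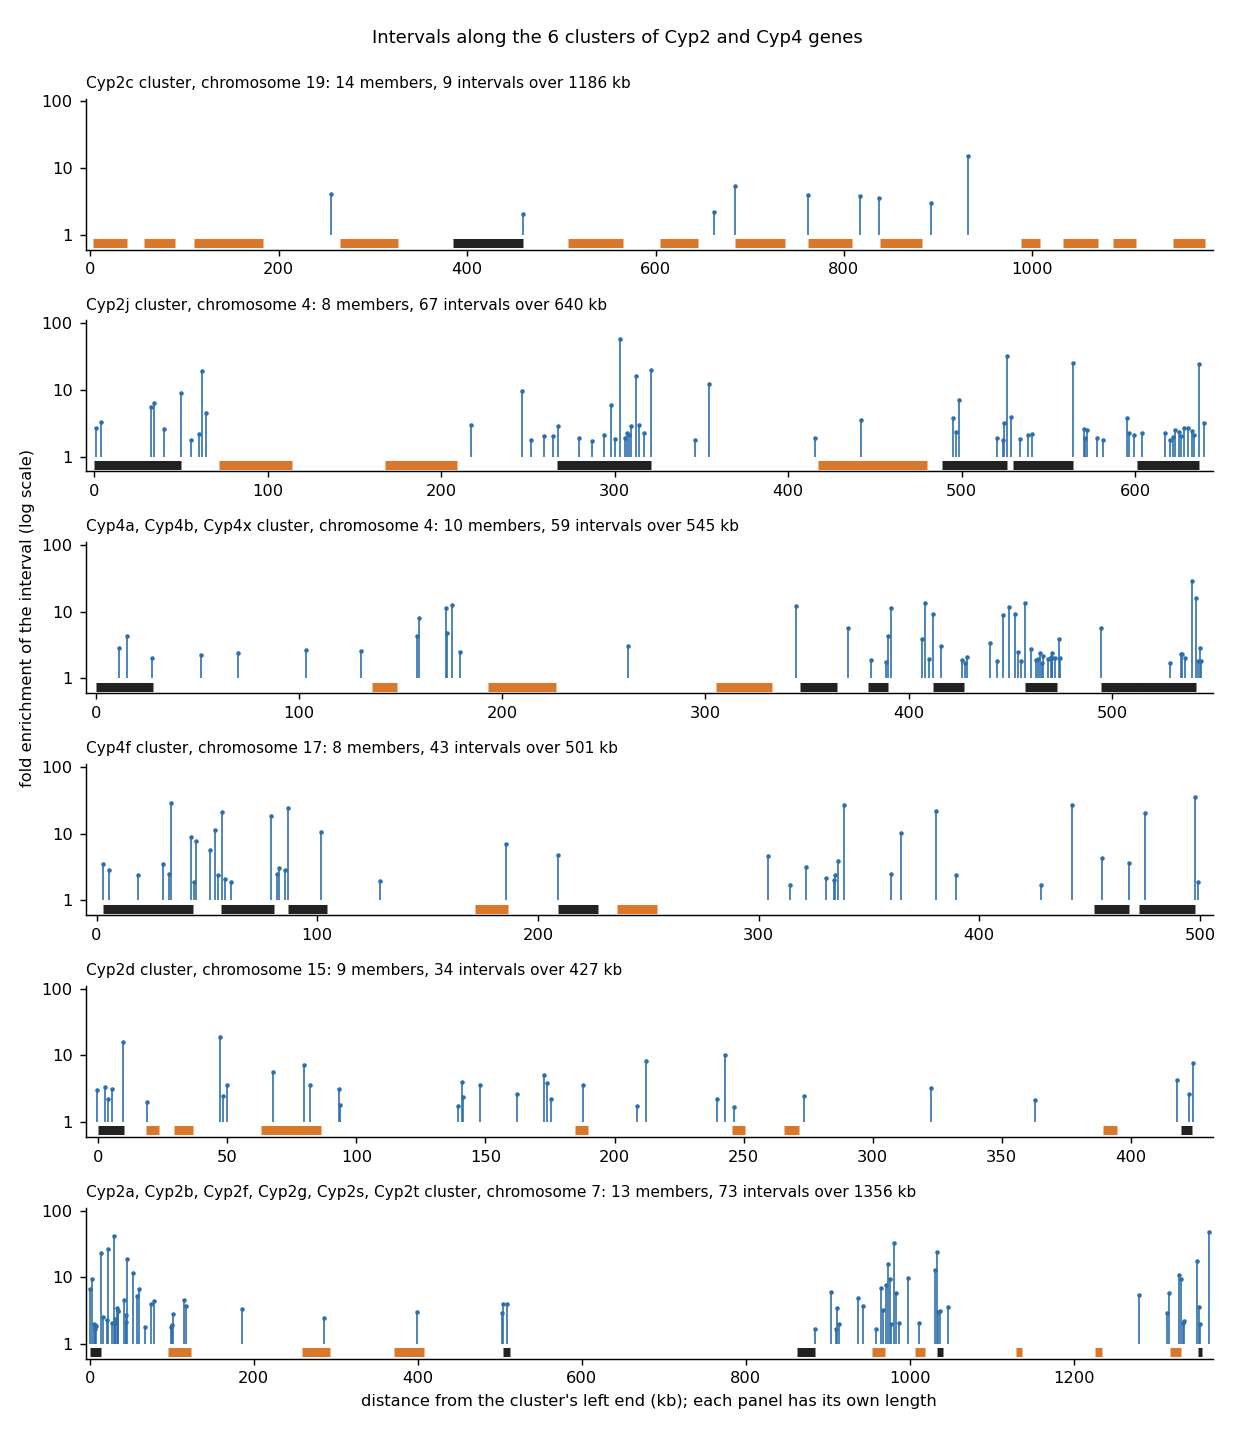
Intervals along the 6 clusters, as fold enrichment (log scale) at the distance of the summit from the left end of the cluster (kb). Bars under each map are member genes, black with and orange without a start interval. The Cyp2c map holds 9 intervals over 1186 kb and the Cyp2j map 67 over 640 kb.

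Stretches with no interval broke up the arrays. The longest touching the Cyp2c cluster was 265 kb and the longest in the chromosome 7 cluster 374 kb, longer than 99.9% of the gaps of the genome. In the Cyp2j cluster a stretch of 152 kb held Cyp2j12 and Cyp2j7. No cluster had unassembled bases. The 8 members outside clusters, Cyp2ab1, Cyp2c23, Cyp2e1, Cyp2r1, Cyp2u1, Cyp2w1, Cyp4f18 and Cyp4v3, all had an interval, and 7 reached 5-fold. Of the 62 in clusters, 40 (64.5%) had an interval and 24 (38.7%) reached 5-fold, against 83.2% and 74.7% of all genes. Of the 22 clustered members without an interval, 12 were in the Cyp2c cluster, where 0 of 14 members reached 5-fold.

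Only uniquely mapped reads were kept, and near-identical paralogs can lose reads under that filter. As a measure, the share of 50-base words within 500 bp of a start that recur in GRCm39 was taken. Its median was 3.15% for members and 0% for all genes. It reached 50% in 5 members, Cyp2c29 (94.1%), Cyp4a12b (65.9%), Cyp4a12a (64.9%), Cyp2b13 (56.7%) and Cyp2b9 (55.5%), and 0 of the 5 had a start interval. Over all genes at or above 50%, 11.4% had one. The starts of Cyp4a12a and Cyp4a12b were 98.4% identical over 979 bases. From 10% to 50%, 6 of 17 members (35.3%) had a start interval against 44.7% of all such genes, and under 10% it was 26 of 48 (54.2%) against 80.8%. Of 8 Cyp2c genes under 10%, 1 had a start interval, and of 8 Cyp2j genes under 10%, 5 had. The Cyp2c span had 29.9% repeated words, the Cyp4a, Cyp4b and Cyp4x span 29.6%, the chromosome 7 span 25.8% and the Cyp2j span 17.1%. The part of repeated sequence in the counts was not tested beyond these values.

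**Figure D4:**
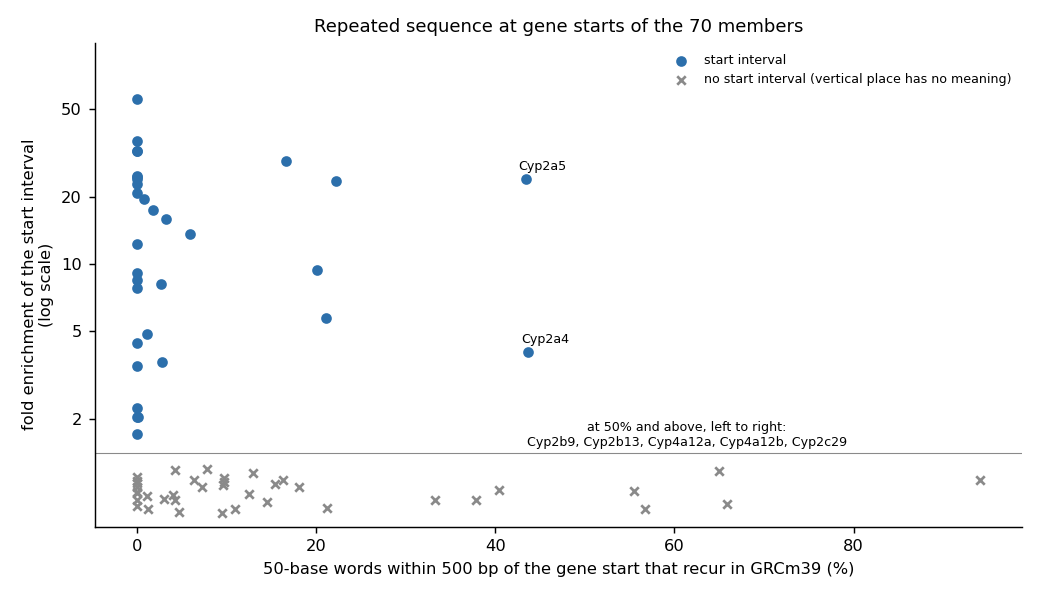
Share of 50-base words within 500 bp of each member's start that recur in GRCm39 (%), against the fold enrichment of the start interval (log scale). Crosses are members with no start interval, drawn below the line at heights without meaning. All 5 members at 50% or above are crosses, and crosses also stand at 0%.

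The promoters of the members were poor in CpG. RefSeq promoters (250 bases before to 50 after the start, GRCm38.p6) matched 54 of the 70 members by symbol, with 60 promoters in all. The observed over expected ratio of CpG had a median of 0.149 for members and 0.384 for all RefSeq promoters. It reached 0.6 in 2 member promoters (3.33%), those of Cyp2r1 (0.710) and Cyp4v3 (0.759), against 35.8% of all. The classes by ratio hold only genes matched to a RefSeq promoter, 8640 with a ratio of at least 0.6 and 6691 under it. At 0.6 or more, 96.2% of these genes had a start interval. Under 0.6, 23 of 52 members (44.2%) had one, against 59.5% of all genes in that class. Under 0.3, a limit chosen after the values were seen, 20 of 45 members (44.4%) had one, against 43.9%. With starts under 10% repeated words as well, 15 of 30 members (50%) had one against 53.7%. The members' share thus lay below that of all genes under a ratio of 0.6 and near it under 0.3, and the part of CpG content in the counts was not tested. For contrast, the 61 bases around the start summits of CpG-rich Cyp2r1 (-43 bp) and CpG-poor Cyp2e1 (-111 bp, ratio 0.217) are given along the gene, from chr7:114162234-114162294 (minus strand) and chr7:140343511-140343571 (plus strand) of GRCm39, with nothing in capitals.
Cyp2r1: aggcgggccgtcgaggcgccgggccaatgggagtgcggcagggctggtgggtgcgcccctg
Cyp2e1: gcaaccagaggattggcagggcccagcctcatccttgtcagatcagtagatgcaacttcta

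**Figure D5:**
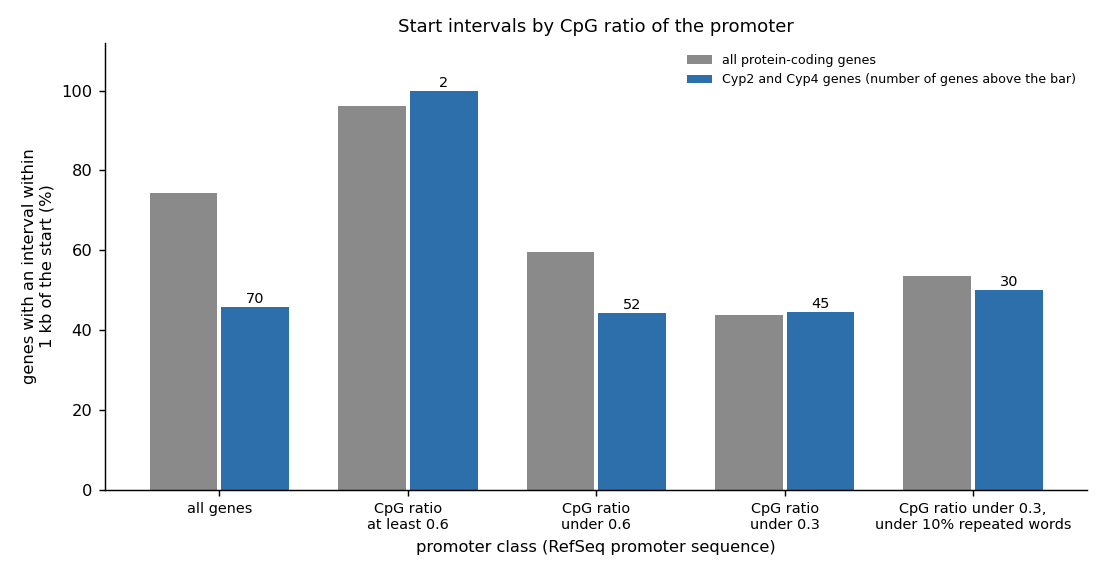
Share of genes with a start interval (%), for all protein-coding genes (grey) and for members (blue, with their number above the bar), over all genes and in classes of the CpG ratio of the RefSeq promoter. The classes hold only genes matched to a RefSeq promoter. The bars differ over all genes, 74.3% and 45.7%, and under a ratio of 0.6, 59.5% and 44.2%, and stand level under 0.3, 43.9% and 44.4%.

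The DR1 motif, a direct repeat bound by HNF4A and by the PPARA and RXRA pair, was searched on both strands as AGGTCA, any base, AGGTCA, with up to 2 mismatches. DR1 was in 8 of 60 member promoters (13.3%) and 3.86% of all RefSeq promoters. It was in 3 of 30 promoters of members with a start interval and in 5 of 30 of members without one. A TATAAA anywhere on the coding strand was in 15 member promoters (25.0%) and 8.32% of all, and in 9 of the 14 Cyp2c promoters. Within the 100 bases before the start it was in 10 (16.7%) and 3.80%, and in 4 of the 14 Cyp2c promoters. The median GC content was 35.7% for Cyp2c promoters and 52.7% for all. Cyp4f16 and Cyp4f37 held the same DR1 letters with 2 mismatches, and so did Cyp2d9 and Cyp2d10. The genes of each pair are paralogs, so their copies are no separate support for each other. At the annotated gene start, Cyp4f16 had an interval (23.8-fold) and the other 3 had none, and the starts of Cyp4f16 and Cyp4f37 were 95.5% identical over 935 bases. Cyp2d9 had its 3.67-fold interval at another transcript start, and a DR1 match in it began at -48 bp from the summit. The stretches are along the gene from the RefSeq promoters, with the motif in capitals.
Cyp4f16 promoter, DR1: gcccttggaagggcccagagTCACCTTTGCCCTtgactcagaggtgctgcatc
Cyp4f37 promoter, DR1: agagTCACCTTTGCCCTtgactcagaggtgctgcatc
Cyp2d9 promoter, DR1: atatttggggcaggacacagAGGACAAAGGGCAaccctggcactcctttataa
Cyp2d10 promoter, DR1: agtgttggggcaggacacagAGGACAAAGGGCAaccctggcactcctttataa

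In the 200 bases around the highest summit, DR1 was found in 11 of the 194 member intervals (5.67%) against 4.78% of all intervals, a share near the background. The CTCF core with up to 1 mismatch was found in 30 (15.5%) against 11.3%, and without mismatch in 3 (1.55%) against 1.42%. Of the 30, 4 were the Cyp2b copies in intron 8. A match gives letters and not a bound site.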

How the data were processed

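The data were ATAC-seq of mouse kidney. Reads had been trimmed with fastp and aligned to mm39 with Bowtie2 2.3.4.3 by the authors, who then removed duplicates, kept uniquely mapped reads, called peaks with MACS3 3.0.0 and removed blacklisted regions with bedtools 2.29.1 (versions from the submitters' processing notes). The deposited peak list gives per summit a fold enrichment over the background (a linear ratio) and a −log10 q-value. The deposited list of summits before filtering gives the same −log10 q, and none of the 874 summits it holds in addition lay in a member region. All columns are pooled over libraries.

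Here, rows were grouped into distinct intervals, each represented by the summit with the highest −log10 q. Intervals were overlapped by at least 1 base with GENCODE M39 genes on GRCm39, with coordinates counted from 1. Places in exons and introns follow the canonical transcript. Members named with values were the 4 with the highest fold in subfamilies of 4 or more, those without an interval, and all members of smaller subfamilies; the others are named where a site or a rank calls for them. Members, lists and alternatives were chosen with earlier results of these data known. The CTCF core, the sites in Cyp2b and Cyp4f and the classes of CpG ratio were chosen after the values were seen. Some planned motif and regulator results are not reported here. Functions were tested on simulated data. Python 3.11.15, pandas 2.3.3, Numba 0.67.0, pysam 0.24.0 and BLAST 2.17.0 were used.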

Additional observations from a re-analysis of the deposited data

How the results depend on the processing

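Of 37 alternatives, 27 stayed within 1.5 times the reported count or median, or within the exact 95% binomial interval of a motif share, and 10 did not. That binomial interval takes promoters and summit windows as independent, which those of paralogs are not. It serves here only as a limit for what counts as moved. Some of the 27 could not have moved. The 31 members with an interval of at least 5-fold keep it when weaker intervals are dropped. No interval is shared between members, so counting intervals for each member gives 194 again. Members with an interval numbered 46 at −log10 q over 2, 42 at over 5, 31 at 5-fold, 47 in the gene body alone (81.8% of all genes) and 56 within 10 kb (88.1%). The 194 intervals became 114 at −log10 q over 5, 55 at 5-fold and 295 within 10 kb. The median strongest fold was 16.4 when only intervals of 5-fold or more were used. Start intervals ranged from 23 at 5-fold (64.3% of all genes) to 37 at the start of any transcript (77.9%), which added Cyp2ab1, Cyp2b10, Cyp2b19, Cyp2d9 and Cyp4f37. Clusters below the genome's density numbered 5, with 3 at −log10 q over 5 and 1 over member regions alone. Cyp2c was below it in each. DR1 was in 1.67% of member promoters (a single one) with 1 mismatch and 45.0% with 3, against 0.554% and 24.7% of all promoters, and in 1.55% of summit windows with 1, against 0.756%.

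No paired analysis was possible because the single pooled list holds no library of its own, and for the same reason no replicate could be left out in turn. Counting starts with under 10% repeated words alone gave 26 members and was added after the data were seen.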
